A study of Mus musculus with 8 samples.

Results

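The proteasome genes were the 49 genes of the deposited liver RNA-seq table whose symbol begins with Psm followed by a letter from a to g and a number, out of 55385 gene identifiers, and no expression value was used to choose them. They encode the subunits of the proteasome, its activators and the chaperones that assemble it. Liver RNA was sequenced, 1 library per mouse, from 4 *Usp39*-HKO males and 4 control male littermates, all 5 weeks old and fasted for 16 h. The floxed and the Cre lines were of C57BL/6J background, per the methods of the study. *Usp39*-HKO mice carried floxed *Usp39*, with loxP sites on either side of exon 2, and Cre driven by the albumin promoter, so the deletion was directed to hepatocytes. The whole-liver values do not show which other liver cells kept the gene. The controls were given the genotype WT in the labels, which state no batch or run and do not say whether the controls carried the floxed alleles. *Usp39* itself encodes a ubiquitin-specific-protease-like protein of the spliceosome, and the study asked what it does for liver homeostasis and for splicing in hepatocytes. Per mouse, 8589636 to 10418450 reads were counted in genes.

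The proteasome is the protease that removes most ubiquitin-tagged proteins from the cytosol and nucleus. Its 20S core is a barrel made of outer rings of alpha subunits, which gate the entrance, and inner rings of beta subunits, of which Psmb5, Psmb6 and Psmb7 carry the active sites. The 19S particle caps the barrel, recognises ubiquitin, unfolds the substrate with a ring of ATPases and feeds it in. Under interferon the active subunits are replaced by the inducible Psmb8, Psmb9 and Psmb10 (the immunoproteasome), along with more of the PA28 alpha-beta activator, and this form favours peptides for antigen presentation. When proteasome activity falls, the transcription factor Nfe2l1 raises most proteasome genes together.

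The members were divided by role into 7 alpha ring and 7 beta ring genes of the 20S core, 3 inducible beta genes, 6 ATPases and 11 non-ATPase subunits of the 19S particle, 3 chaperones of 19S assembly, 4 of 20S assembly, 3 genes of PA28 alpha-beta, 2 of the other activators (PA28 gamma and PA200), the regulator PI31 and 2 tissue-specific 20S genes. Of the 49, 47 reached an FPKM (reads per kilobase of exon, set relative to the total count of the library) of 0.5 in at least 4 of the 8 livers and were tested. The exceptions were the tissue-specific *Psma8*, the alpha subunit of the testis, with 2 to 11 counts per liver and 0.0873 to 0.462 FPKM, and *Psmb11*, the beta subunit of the thymus, with 0 or 1 count. *Psma8* was at 0.0873, 0.162, 0.373 and 0.308 FPKM in controls 1 to 4 and at 0.206, 0.236, 0.462 and 0.423 FPKM in *Usp39*-HKO livers 1 to 4. *Psmb11* was at 0 in 3 livers of each genotype, and its 1 count gave 0.0211 FPKM in control 2 and 0.022 FPKM in *Usp39*-HKO liver 4.

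Facts of the whole series bear on every value that follows. Fold changes come from a fit of the raw counts in edgeR (quasi-likelihood), scaled by TMM factors, which set libraries level over most genes. The median of the 14340 genes tested then had a log2 fold change of 0.00 to 2 decimals. With scaling by total counts alone that median was 0.24, so a small difference is given relative to the median gene and can change sign with the scaling. The deposited FPKM follow the total counts. The limma fits given below as an alternative were run on log2 of those FPKM and share that scaling. *Usp39*, summed over all its exons, was at 9.58 ± 0.706 FPKM (SD, n = 4) in controls and 8.44 ± 0.286 (SD, n = 4) in *Usp39*-HKO livers and did not overlap (exact permutation test, two-sided p = 0.0286, the smallest that 4 against 4 allow). The table does not separate exon 2. Control 4 held pancreas acinar transcripts: the 13 markers of that list summed to 802.9 FPKM there, against 3.0 in the lowest control and 4.0 to 6.2 in *Usp39*-HKO livers, and the calls are therefore also given without it. Called higher in *Usp39*-HKO livers were 9 of 11 macrophage, 8 of 10 stellate, 4 of 4 tested cholangiocyte and 8 of 9 tested proliferation markers. Of 8 endothelial markers 0 were called higher and 2 lower (edgeR, with 0 higher and 3 lower at an unadjusted p under 0.05, 0 and 2 in DESeq2, and 2 and 1 in limma). In bulk liver, fewer cells of a type and less RNA per cell cannot be told apart.

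Most proteasome genes differed little between the genotypes. Of the 6 called, 4 encode subunits of the 19S particle, which is 23.5% of its 17 tested genes, near the 22.5% called among all genes. At an adjusted p under 0.05, 6 of the 47 members were called, 12.8%, against that 22.5%. A single member rose, *Psmd8*, 2.13% of the members against 10.9% of all genes. The 5 that fell were *Psme4*, *Psmd9*, *Psmd3*, *Psmd1* and *Psmd2*, 10.6% of the members against 11.6% of all genes. The share called was thus below that of all genes for rises and near it for falls. Without control 4, 1 was called higher and 3 lower, a count with no share of all genes beside it. Scaling by total counts alone called 8 members higher, 17% against 24.6% of all genes, and 1 lower, 2.13% against 4.85%. Of the members, 80.9% had a log2 fold change within 0.25 of 0, against 45.7% of all genes tested, and the 95% confidence interval lay within 0.5 of 0 for 37 of the 47. All genes tested include those just past the filter of 0.5 FPKM and were not matched to the members on level. The member median was -0.11, and it was 0.12 with total counts alone, below the median of all genes on either scaling (0.00 and 0.24).

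**Figure D1:**
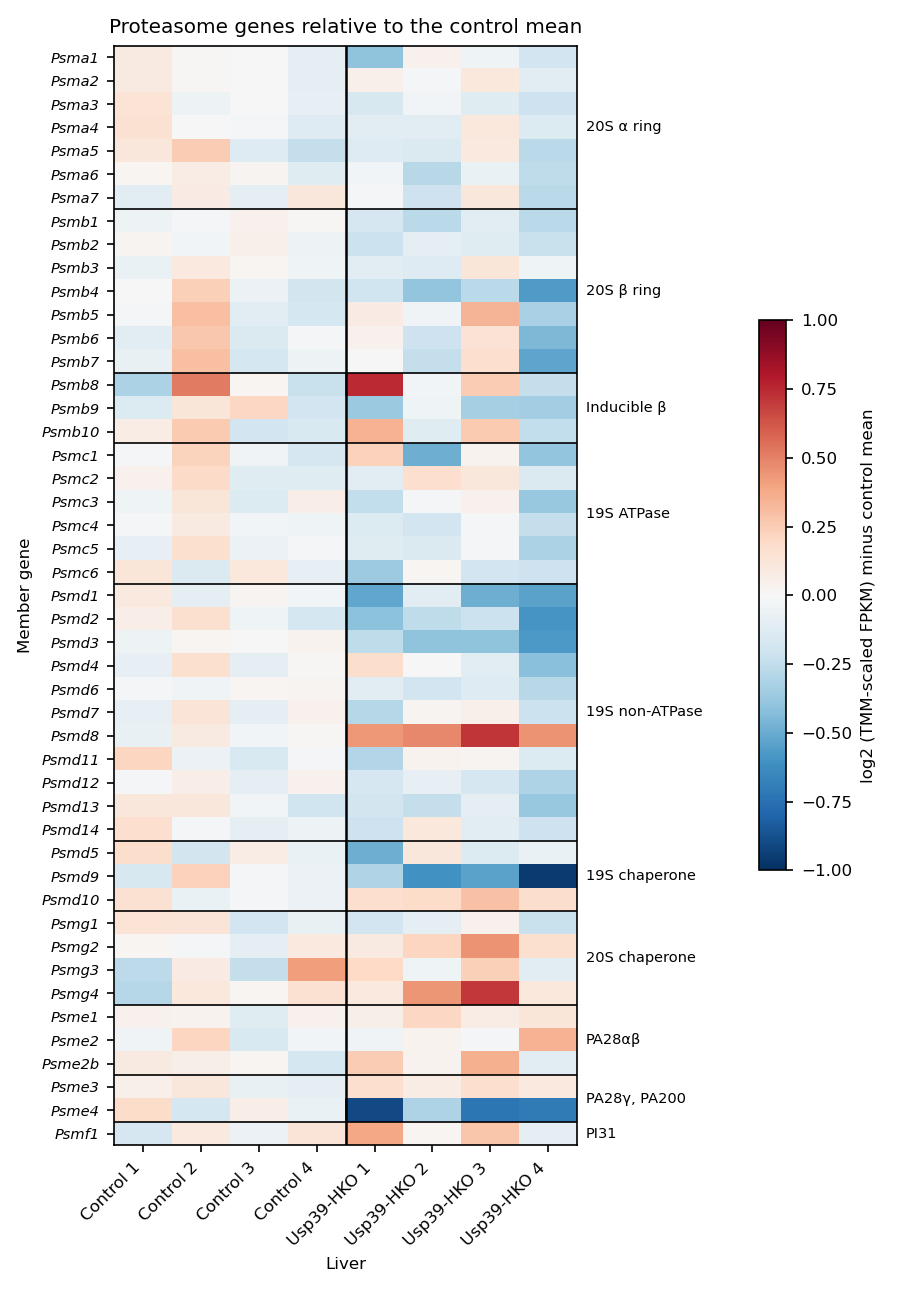
Level of each of the 47 tested members in each liver, as log2 of TMM-scaled FPKM minus the mean of the 4 controls, with rows grouped by role and columns by genotype (control livers left, *Usp39*-HKO livers right). *Psmd8* is higher in all 4 *Usp39*-HKO livers, *Psme4*, *Psmd9*, *Psmd3*, *Psmd1* and *Psmd2* are lower, and *Usp39*-HKO liver 4, which has the largest TMM factor (1.19), is lowest for *Psmd9*, *Psmd3* and *Psmd2*.

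The sequences before the transcription start of 4 called members are shown, since these are the members whose levels moved and had a long stretch of RefSeq promoter free of annotated exons. RefSeq (GRCm38.p6) gave a window from 250 bases before to 50 after the start for 41 of the 49 members. Short motifs (4 in all) were searched on both strands of the 300 bases: TGACNNNGC, the core bound by Nfe2l1 and Nfe2l2 with small Maf proteins, CCAAT, the box bound by NF-Y, and GAAANNGAA and TTCNNNGAA, cores of the interferon response elements. Capitals mark a match, no match overlapped another in the stretches shown, and each sequence runs 5′ to 3′ on the gene's strand and holds no annotated exon base. The *Psmd9* stretch ends at the RefSeq start, which is not the first start of the gene in GENCODE, and lies in an intron of a transcript that begins further upstream.
*Psmd8*, chr7:29180702-29180923, minus strand: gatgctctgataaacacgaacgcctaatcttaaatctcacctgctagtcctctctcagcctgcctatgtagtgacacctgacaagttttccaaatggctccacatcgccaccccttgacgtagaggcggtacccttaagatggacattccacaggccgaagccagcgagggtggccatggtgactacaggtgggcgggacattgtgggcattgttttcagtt
*Psme4*, chr11:30771525-30771725, plus strand: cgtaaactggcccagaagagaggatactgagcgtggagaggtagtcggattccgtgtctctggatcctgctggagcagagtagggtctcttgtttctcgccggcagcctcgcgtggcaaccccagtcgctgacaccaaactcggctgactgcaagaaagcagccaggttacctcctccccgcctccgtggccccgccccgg
*Psmd9*, chr5:123227940-123228189, plus strand: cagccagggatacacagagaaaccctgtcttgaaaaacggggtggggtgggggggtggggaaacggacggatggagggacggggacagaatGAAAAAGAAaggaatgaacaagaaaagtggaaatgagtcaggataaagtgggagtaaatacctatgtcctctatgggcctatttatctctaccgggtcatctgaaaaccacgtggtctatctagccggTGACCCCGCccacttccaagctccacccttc
*Psmd2*, chr16:20651402-20651651, plus strand: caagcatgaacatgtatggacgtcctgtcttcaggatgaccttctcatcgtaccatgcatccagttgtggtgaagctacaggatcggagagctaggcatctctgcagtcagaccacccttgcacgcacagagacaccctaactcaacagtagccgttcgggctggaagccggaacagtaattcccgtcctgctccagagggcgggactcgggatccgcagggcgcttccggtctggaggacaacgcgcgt

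The 222 bases before *Psmd8*, the member that rose, and the stretches before *Psme4* and *Psmd2* held none of the 4 motifs. *Psmd9* had GAAANNGAA beginning 159 bases and TGACNNNGC beginning 31 bases before the start. In the full windows, *Psme4* also had TGACNNNGC on the opposite strand, across the start itself, and *Psmd2* had TTCNNNGAA beginning at base 5 after the start, both outside the stretches shown. TGACNNNGC occurred in 6 of the 41 member windows (14.6%) and in 12.4% of the 32851 windows of all genes. These 6 were *Psmb5*, *Psmb6*, *Psmc6*, *Psmd12*, *Psmd9* and *Psme4*, of which only *Psmd9* and *Psme4* were called. CCAAT was in 34.1% of member windows and 37.4% of all, GAAANNGAA in 14.6% and 8.56%, and TTCNNNGAA in 7.32% and 8.3%. The inducible *Psmb8* held TTCNNNGAA beginning 97 bases before its start.

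*Psmd8* was the only member that rose. Its product, Rpn12, is a subunit of the 19S lid and one of the last to join it. The gene (ENSMUSG00000030591) lies on the minus strand at chr7:29174188-29180701 of mm10, with 6 merged exons, and no other gene shared its exon bases or a near-identical stretch. Its level was 50.7, 57.7, 52.6 and 55.8 FPKM in controls 1 to 4 and 80.5, 88.9, 103 and 95.3 FPKM in *Usp39*-HKO livers 1 to 4. Every *Usp39*-HKO liver was above every control, with means of 54.2 ± 3.12 and 91.8 ± 9.43 FPKM (SD, n = 4 each). The log2 fold change under TMM scaling was 0.53 with a standard error of 0.10 and an adjusted p of 0.00526 (edgeR), a 1.44-fold difference. With total counts alone, the scaling of the FPKM above, the log2 fold change was 0.76 (edgeR adjusted p = 0.000928). *Psmd8* was called higher in all 19 other fits run, with 0.53 and an adjusted p of 0.0203 without control 4. The adjusted p did not exceed 0.0237 when any 1 liver was left out. These are sums over all exons, and which exons were joined cannot be read from them.

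*Psme4* had the largest fall of any member. It encodes PA200, a nuclear activator that binds the ends of the 20S core without ATP or ubiquitin. The gene (ENSMUSG00000040850, chr11:30771726-30880361, plus strand) has 50 merged exons and the longest exon sequence of the called members, 8382 bases. Levels were 26.9, 21.1, 24.7 and 23.2 FPKM in controls and 14, 22.7, 16.7 and 18.9 FPKM in *Usp39*-HKO livers. The groups overlapped on the deposited scale through *Usp39*-HKO liver 2 and did not overlap once the libraries were TMM-scaled, where the lowest control was at 22.9 and the highest *Usp39*-HKO liver at 20.9. The log2 fold change was -0.65 (SE 0.14, edgeR adjusted p = 0.00765), and it stayed called without any 1 liver (highest adjusted p 0.0272). With total counts alone it was -0.41 and missed the threshold (adjusted p = 0.0546).

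*Psmd9*, a chaperone of 19S base assembly, also fell. It was at 12.5, 16.7, 13.8 and 13.9 FPKM in controls and at 12.7, 11, 11.2 and 9.42 FPKM in *Usp39*-HKO livers, where the first *Usp39*-HKO liver reached past the first control. The log2 fold change was -0.59 (SE 0.14, edgeR adjusted p = 0.0123). It was the only member called lower with total counts alone (-0.36, adjusted p = 0.0431). The gene (ENSMUSG00000029440, chr5:123169413-123250131, plus strand) shares 25.5% of its exon bases with the antisense RNA gene Gm26745, and since the strand setting of the counting is not stated, reads of the pair cannot be told apart.

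The 3 other members that fell were non-ATPase subunits of the 19S particle. *Psmd3* encodes Rpn3 of the lid and lies at chr11:98682554-98695979 on the plus strand (ENSMUSG00000017221). It was at 35.3, 37.5, 36.4 and 38.6 FPKM in controls and 34, 33, 32.3 and 32 FPKM in *Usp39*-HKO livers. It was the only member with all *Usp39*-HKO livers below all controls in the deposited values, and its log2 fold change was -0.40 (SE 0.10, edgeR adjusted p = 0.0142). With total counts alone the log2 fold change was -0.17 and was not called (edgeR adjusted p = 0.189).

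*Psmd1* and *Psmd2* encode Rpn2 and Rpn1, the large scaffolds to which ubiquitin receptors dock. *Psmd1* (ENSMUSG00000026229, chr1:86064387-86139151, plus strand) was at 25.5, 22.6, 24.2 and 24 FPKM in controls and 18.4, 26.3, 19.8 and 21.4 FPKM in *Usp39*-HKO livers, with liver 2 above every control. Its log2 fold change was -0.40 (SE 0.12, edgeR adjusted p = 0.0309). *Psmd2* (ENSMUSG00000006998, chr16:20651652-20663414, plus strand) was at 61.7, 66.6, 57.2 and 53.8 FPKM in controls and 49.4, 58.9, 59.3 and 51.1 FPKM in *Usp39*-HKO livers, and the deposited values overlapped. Its log2 fold change was -0.36 (SE 0.12, edgeR adjusted p = 0.0477). Both calls were weak against single livers: with a single liver removed from the fit, *Psmd1* kept its call in 2 of 8 cases (adjusted p up to 0.0896) and *Psmd2* in 0 of 8 (0.053 to 0.13). Without control 4 the adjusted p was 0.0656 for *Psmd1* and 0.053 for *Psmd2*, while *Psmd8*, *Psme4*, *Psmd9* and *Psmd3* stayed called. With total counts alone *Psmd1* was at -0.16 (edgeR adjusted p = 0.34) and *Psmd2* at -0.13 (edgeR adjusted p = 0.415), neither of them called. All 5 falls kept their sign in all 19 other fits.

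**Figure D2:**
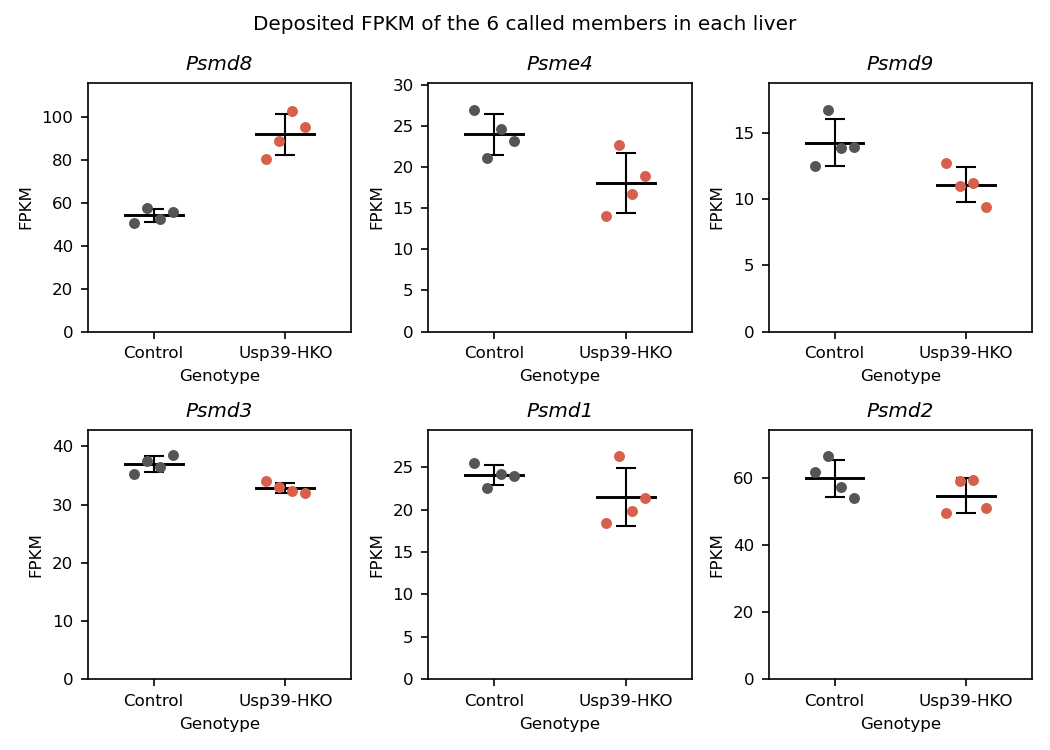
Deposited FPKM of the 6 called members, 1 point per liver, with the mean (bar) and SD (whisker) of 4 livers per genotype, and each axis starting at 0. *Psmd8* is apart between the genotypes (50.7 to 57.7 against 80.5 to 103 FPKM), as is *Psmd3* by a small gap, while *Psme4*, *Psmd9*, *Psmd1* and *Psmd2* overlap on this scale.

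No gene of the 20S rings was called in the edgeR fit with TMM factors (0 higher and 2 lower at an unadjusted p under 0.05, 0 and 1 in DESeq2, and 1 and 0 in limma). The 14 genes ran from 20.2 to 86.7 FPKM in the control means, among the higher member levels, and had a median log2 fold change of -0.12. In the alpha ring, 6 of 7 lay below 0 under TMM scaling, from -0.15 for *Psma6* to 0.01 for *Psma2*, the smallest adjusted p being 0.294. With total counts alone 7 of 7 lay above 0, as did 13 of the 14 ring genes. *Psma6*, the alpha subunit of highest level, was at 86.6, 90.7, 86.8 and 80.7 FPKM in controls and 92.9, 83.8, 95 and 93 FPKM in *Usp39*-HKO livers. *Psma2* was at 21.2, 20.3, 19.8 and 19.3 FPKM in controls and 22.9, 23.6, 25.1 and 24 FPKM in *Usp39*-HKO livers. *Psma2* was thus apart in the deposited values and level with the median gene after TMM scaling, an example of what the scaling does.

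In the beta ring, *Psmb4*, which closes the ring without an active site, had the lowest value. It was at 85.2, 101, 81.3 and 77 FPKM in controls and 82.2, 77, 82.2 and 74.7 FPKM in *Usp39*-HKO livers. The log2 fold change of -0.36 (SE 0.12) just missed the threshold in edgeR (adjusted p = 0.0553). It passed in DESeq2 (adjusted p = 0.034), in edgeR with the exon length trend of each liver removed (adjusted p = 0.0325) and in edgeR on the genes kept by filterByExpr. *Psmb5*, the chymotrypsin-like site, was at 83.8, 106, 78.9 and 77.8 FPKM in controls and 99.9, 98.9, 126 and 88.7 FPKM in *Usp39*-HKO livers. Its log2 fold change was 0.03 with a 95% interval from -0.30 to 0.35, so a difference of up to about that size was not resolved.

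The ring genes gave a yardstick that needs no scaling between libraries, since both values come from the same liver. The geometric mean of the 14 ring genes was 40.1 to 45.1 FPKM in controls and 42.9 to 49.4 FPKM in *Usp39*-HKO livers, and all members together took 0.405 to 0.445% of the counts in controls and 0.423 to 0.473% in *Usp39*-HKO livers. Against that mean, 5 members were higher in every *Usp39*-HKO liver than in every control (*Psmd8*, *Psmd10*, *Psmg2*, *Psme2b* and *Psme3*), 10.6% against 16.5% of all genes tested. The 3 that were lower (*Psmd2*, *Psmd3* and *Psmd9*) made 6.38% against 6%. The members counted include the 14 ring genes that form the mean. All 14 overlapped on this measure, so the set-up itself lowers both member shares. *Psmd8* stood 0.28 to 0.47 log2 units above the ring mean in controls and 0.91 to 1.09 above it in *Usp39*-HKO livers. *Psmd3* stood between -0.27 and -0.06 in controls and between -0.61 and -0.33 in *Usp39*-HKO livers. *Psmd1* and *Psme4* overlapped on this measure, which is a description without a test.

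Among the 6 ATPases, which unfold substrates, none was called in edgeR (smallest adjusted p 0.264), at an unadjusted p under 0.05 (0), in DESeq2 (0) or in limma (0). Their log2 fold changes ran from -0.18 for *Psmc6* to 0.01 for *Psmc2* under TMM scaling, and with total counts alone 6 of 6 lay above 0. *Psmc6* was at 29.6, 24.9, 29.2 and 26.6 FPKM in controls and 23.5, 32.9, 27.7 and 30.8 FPKM in *Usp39*-HKO livers. *Psmc2* was at 19.3, 21.6, 17.1 and 17.6 FPKM in controls and 19.1, 25, 23.5 and 22 FPKM in *Usp39*-HKO livers. Both overlapped.

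Of the 11 non-ATPase subunits 1 was called higher, 9.09% against 10.9% of all genes, and 3 lower, 27.3% against 11.6%, with *Psmd1* and *Psmd2* among the 3. Their median log2 fold change was -0.18. The smallest difference among them was at *Psmd4*, the ubiquitin receptor Rpn10, with 55.5, 66.5, 55.2 and 61.2 FPKM in controls and 73.7, 70.4, 63.7 and 57.4 FPKM in *Usp39*-HKO livers. Its log2 fold change was -0.07 (95% interval -0.36 to 0.21). *Psmd14*, the deubiquitinase Rpn11 of the lid, had -0.10 (SE 0.11), and *Psmd11*, Rpn6, had -0.09 (SE 0.11). *Psmd6*, *Psmd7*, *Psmd12* and *Psmd13* lay between -0.22 and -0.10, none of them called. Under TMM scaling *Psmd8* was the only one of the 11 above 0, and with total counts alone 8 of the 11 were above 0.

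**Figure D3:**
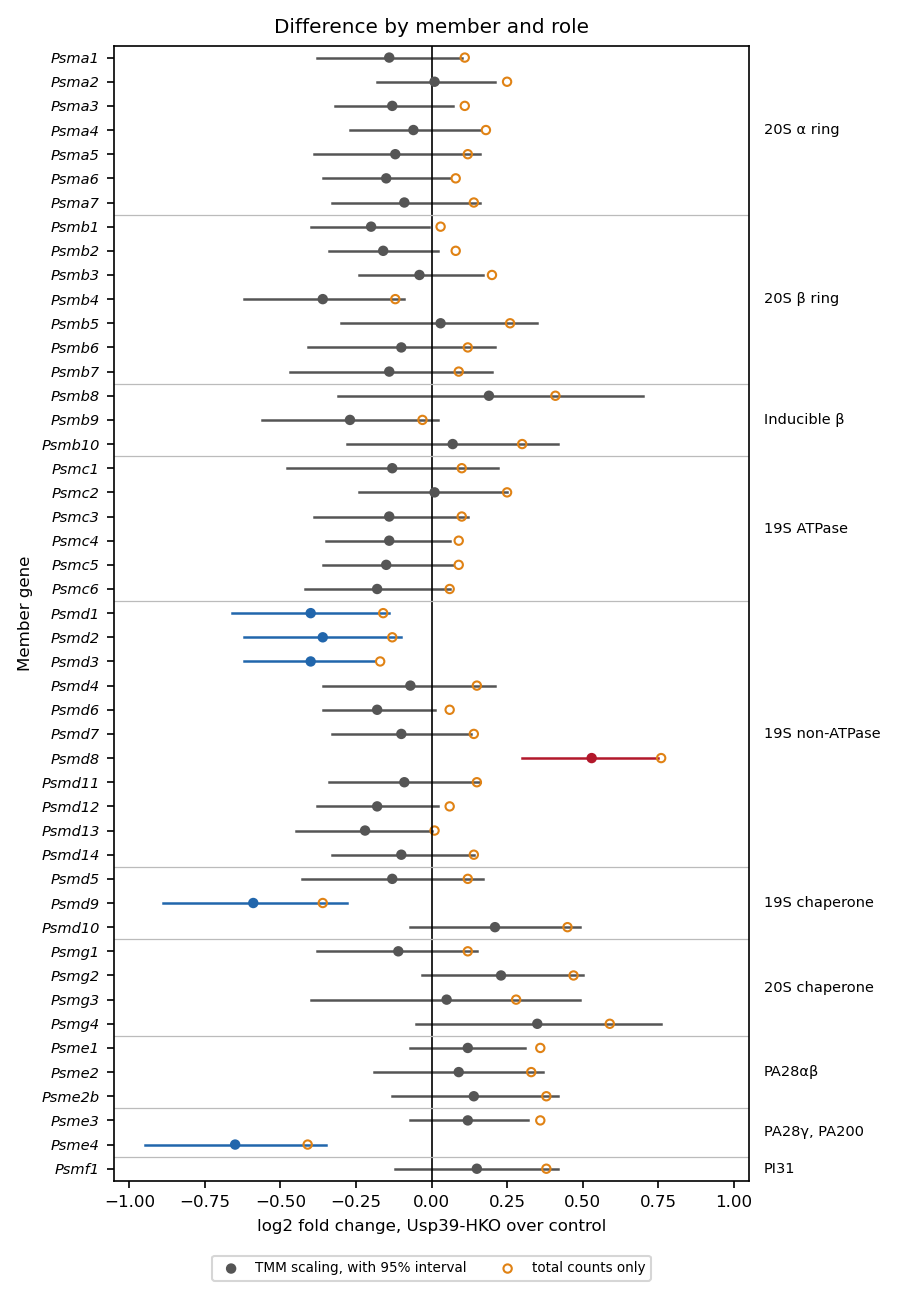
Difference between *Usp39*-HKO and control livers, as log2 fold change, for the 47 tested members by role, with the edgeR estimate under TMM scaling (filled point, line for the 95% interval, red for called higher and blue for called lower) and the estimate with total counts alone (open point). The 19S non-ATPase genes hold both *Psmd8* at 0.53 and the lower *Psmd3* and *Psmd1* at -0.40, and scaling by total counts shifts all 47 points to the right by a similar amount.

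The remaining assembly chaperones were not called in edgeR with TMM factors. Under total counts alone *Psmd10* (0.45, edgeR adjusted p = 0.0333), *Psmg2* (0.47, adjusted p = 0.0221) and *Psmg4* (0.59, adjusted p = 0.039) were called higher. The same 3 were in limma, which shares the scaling by total counts and is no separate check on it. *Psmd10* (gankyrin), another chaperone of the 19S base, was at 6.97, 6.04, 6.18 and 6.21 FPKM in controls and 7.84, 8.48, 8.99 and 9.26 FPKM in *Usp39*-HKO livers. The groups were apart on the deposited and the TMM-scaled values, and the log2 fold change was 0.21 (SE 0.13, edgeR adjusted p = 0.269). *Psmd5* was at 5.83, 4.59, 5.43 and 5.07 FPKM in controls and 4.07, 6.65, 5.48 and 6.42 FPKM in *Usp39*-HKO livers, overlapping, with -0.13 (SE 0.14). The 3 chaperones of 19S assembly thus had 1 positive and 2 negative estimates under TMM scaling, of which *Psmd9* alone passed the test. With total counts alone 2 of the 3 were positive.

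Psmg1 to Psmg4 pair up to build the alpha ring. *Psmg4* had the largest estimate of them, at 10, 13.3, 12.4 and 14 FPKM in controls and 14.5, 19.8, 23.2 and 17.1 FPKM in *Usp39*-HKO livers. These did not overlap, and the log2 fold change was 0.35 (SE 0.19, edgeR adjusted p = 0.201). *Psmg1* was at 14, 14.1, 11.2 and 12.5 FPKM in controls and 12.4, 14.4, 15.3 and 14.3 FPKM in *Usp39*-HKO livers. *Psmg3* was at 1.47, 1.88, 1.49 and 2.42 FPKM in controls and 2.24, 2.03, 2.43 and 2.11 FPKM in *Usp39*-HKO livers, the lowest level of any tested member. Both overlapped, with log2 fold changes of -0.11 (SE 0.12) and 0.05 (SE 0.20). *Psmg2*, at 7.72 ± 0.508 and 10.7 ± 1.3 FPKM (SD, n = 4 each), had 0.23 (SE 0.12, edgeR adjusted p = 0.193).

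Counted by overlap, 9 members had every *Usp39*-HKO liver above every control in the deposited FPKM, 19.1% against 23.9% of all genes tested, and 1 had every one below, 2.13% against 4.81%. The 9 were *Psma2*, *Psmd8*, *Psmd10*, *Psmg2*, *Psmg4*, *Psme1*, *Psme2b*, *Psme3* and *Psmf1*. After TMM scaling, 3 were apart upward (*Psmd8*, *Psmd10* and *Psme1*), 6.38% against 11.8% of all genes, and 9 downward, 19.1% against 13%. Those 9 were the 5 called lower and *Psmb1*, *Psmb2*, *Psmb4* and *Psmd6*. On both scales *Psmd8* was apart upward and *Psmd3* downward.

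The inducible catalytic subunits were expressed at a low level in both genotypes, and 0 of 3 were called in edgeR, at an unadjusted p under 0.05, in DESeq2 or in limma. *Psmb8* was at 3.67, 6.62, 4.65 and 4.03 FPKM in controls and 8.52, 5.34, 6.35 and 5.05 FPKM in *Usp39*-HKO livers. *Psmb9* was at 5.09, 6.15, 6.46 and 5.04 FPKM in controls and 4.81, 6.46, 5.18 and 5.74 FPKM in *Usp39*-HKO livers. *Psmb10* was at 9.71, 11.2, 8.13 and 8.61 FPKM in controls and 13, 10.1, 13 and 10.2 FPKM in *Usp39*-HKO livers. The groups overlapped for all 3. Their log2 fold changes were 0.19 (95% interval -0.31 to 0.70), -0.27 (-0.56 to 0.02) and 0.07 (-0.28 to 0.42), with edgeR adjusted p of 0.595, 0.166 and 0.798. *Psmb8* and *Psmb10* were highest, or level with the highest, in *Usp39*-HKO liver 1, and without that liver both estimates were 0.00 to 2 decimals.

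These genes lie in or beside crowded loci: *Psmb8* (ENSMUSG00000024338, chr17:34197721-34201454) and *Psmb9* (ENSMUSG00000096727, chr17:34181987-34187764) flank *Tap1*, which encodes a subunit of the peptide transporter of antigen presentation, and *Psmb10* (ENSMUSG00000031897) is at chr8:105935735-105938444. *Psmb9* shares 212 exon bases with *Tap1* on the opposite strand, 5.79% of its own, and reads from those bases cannot be assigned without the strand setting.

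The ratio of each inducible subunit to the constitutive one it replaces was taken within each liver and so does not depend on scaling. Its size does depend on the exon lengths: 3381 bases for *Psmb8* and 899 for *Psmb5*, 3660 for *Psmb9* and 1872 for *Psmb6*, 1705 for *Psmb10* and 3421 for *Psmb7*. The percentages therefore serve to compare livers and are not proportions of transcripts or of subunits. *Psmb8* over *Psmb5* was 4.38, 6.23, 5.89 and 5.18% in controls and 8.53, 5.4, 5.04 and 5.7% in *Usp39*-HKO livers. *Psmb9* over *Psmb6* was 12.2, 11.2, 16 and 11% in controls and 9.34, 13.9, 8.94 and 13.4% in *Usp39*-HKO livers. *Psmb10* over *Psmb7* was 49.3, 43.6, 44.5 and 41.8% in controls and 57, 48.4, 47.9 and 54.4% in *Usp39*-HKO livers. All 3 ratios overlapped between genotypes. In log2 units the differences were 0.17, -0.16 and 0.21, with two-sided p from the exact permutation test of 0.543, 0.486 and 0.0857 (0.543, 0.543 and 0.257 adjusted over the 3 ratios). The *Psmb8* ratio difference rested on *Usp39*-HKO liver 1, without which it was 0.00.

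**Figure D4:**
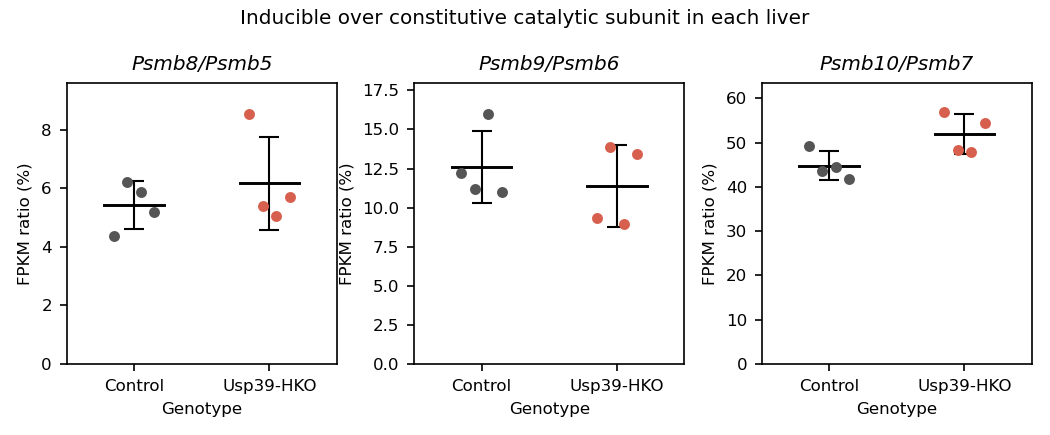
FPKM of each inducible catalytic subunit as a percent of the constitutive subunit it replaces, 1 point per liver, with the mean (bar) and SD (whisker) of 4 livers per genotype, and each axis starting at 0. The genotypes overlap in all 3 panels, at 5.42 and 6.17% for *Psmb8*/*Psmb5*, 12.6 and 11.4% for *Psmb9*/*Psmb6* and 44.8 and 51.9% for *Psmb10*/*Psmb7* (control and *Usp39*-HKO means).

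Inducible subunits are high in immune cells, whose markers moved with genotype. Called higher were 9 of the 11 macrophage markers, which summed to 471.2 to 662.9 FPKM in controls and 915.4 to 1289.4 FPKM in *Usp39*-HKO livers, and 5 of the 14 leukocyte markers tested of 18, which summed to 44.9 to 78.8 and 61.7 to 117.8 FPKM. Hepatocyte markers, of which 4 of 8 were called lower, summed to 15558.5 to 17408.1 and 13955.9 to 18823.7 FPKM, and no marker of the 3 lists was at 0 in every liver. The part of these cells in the values of *Psmb8*, *Psmb9* and *Psmb10* was not tested.

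The PA28 alpha-beta genes lay slightly above the median gene without being called (0 of 3 in edgeR, at an unadjusted p under 0.05 and in DESeq2, 2 higher in limma). *Psme1* was at 36.7, 36.9, 32.7 and 37.8 FPKM in controls and 41.2, 48.8, 43.7 and 50.5 FPKM in *Usp39*-HKO livers, apart on both scales. *Psme2* was at 10.6, 12.8, 9.77 and 11 FPKM in controls and 11.7, 13.2, 12.6 and 18 FPKM in *Usp39*-HKO livers, overlapping. *Psme2b* was at 26.4, 26.2, 25.2 and 22.7 FPKM in controls and 32.8, 30.2, 37.1 and 30.1 FPKM in *Usp39*-HKO livers, apart in the deposited values. The log2 fold changes were 0.12 (SE 0.09), 0.09 (SE 0.13) and 0.14 (SE 0.13), and the smallest adjusted p was 0.373 (edgeR). With total counts alone *Psme1* (0.36, adjusted p = 0.0242) and *Psme2b* (0.38, adjusted p = 0.0349) were called higher.

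*Psme2* and *Psme2b* are near-identical, so how reads were divided between them is uncertain. *Psme2b* (ENSMUSG00000078153) is a single exon of 837 bases at chr11:48945354-48946190, and *Psme2* (ENSMUSG00000079197) has 8 merged exons at chr14:55587441-55591113. Their coding sequences of 717 bases each differ at 5 positions, C312T, A369G, C489T, C519T and C543T (the base of *Psme2*, its position from 1 at the start codon, the base of *Psme2b*), an identity of 99.3%. Coding bases 424 to 543 from GENCODE vM21 are shown because 3 of the differences, in capitals, fall in them.
*Psme2*: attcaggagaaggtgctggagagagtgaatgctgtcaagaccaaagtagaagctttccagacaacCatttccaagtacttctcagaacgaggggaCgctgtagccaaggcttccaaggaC
*Psme2b*: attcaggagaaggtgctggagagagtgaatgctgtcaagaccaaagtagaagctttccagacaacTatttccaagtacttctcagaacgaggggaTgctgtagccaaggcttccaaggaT

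Within the coding sequence, a read pair that covers none of these positions cannot be assigned to either gene. The longest match between the genes was 794 bases, against 1764 exon bases of *Psme2* and 837 of *Psme2b*. Pairs that reach outside that match may be assigned. With near-identical copies summed before the test, an alternative added after the data were seen, the members called were again 1 higher and 5 lower.

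The last activators went different ways. *Psme3*, the nuclear PA28 gamma, was at 26.1, 27.5, 23.9 and 24.5 FPKM in controls and 31.3, 31.5, 33 and 35 FPKM in *Usp39*-HKO livers, apart in the deposited values. Its log2 fold change was 0.12 (SE 0.09, edgeR adjusted p = 0.34), beside -0.65 for *Psme4*, and with total counts alone it was called higher (0.36, adjusted p = 0.0157). *Psmf1*, which encodes PI31, was at 7.66, 9.35, 8.24 and 9.73 FPKM in controls and 12.4, 10.4, 12.2 and 10.5 FPKM in *Usp39*-HKO livers. It too was apart in the deposited values, with a log2 fold change of 0.15 (SE 0.12, edgeR adjusted p = 0.422), and was called higher with total counts alone (0.38, adjusted p = 0.0279).

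Genes that work with the proteasome were read from 5 lists chosen by function, in which 10 of the 81 genes tested were called higher, 12.3% against 10.9% of all genes, and 13 lower, 16% against 11.6%. Among the proteasome partners, 0 of 19 were called higher and 4 lower in edgeR (2 and 6 at an unadjusted p under 0.05, 0 and 4 in DESeq2, 4 and 0 in limma). They included *Ecpas* at -0.47 (SE 0.13), which tethers proteasomes, *Ubqln4* at -0.33 (SE 0.10), a shuttle of ubiquitinated cargo, and the ligase *Ube3c* at -0.33 (SE 0.10). *Pomp*, the chaperone that completes the 20S core, was at 15 ± 0.938 and 18 ± 2.43 FPKM (SD, n = 4 each), with a log2 fold change of 0.03 (SE 0.11). *Adrm1*, the ubiquitin receptor Rpn13, was at 23.2 ± 3.49 and 28.3 ± 4.02 FPKM, with 0.06 (SE 0.15). With total counts alone this list had 4 called higher and 0 lower, and over the 5 lists the 13 genes called lower all kept a negative sign, with *Calr* the 1 still called.

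In the Nfe2l1 list, 3 of 13 genes were called higher and 2 lower. The transcription factor *Nfe2l1* was at 31.1, 40, 29.1 and 30.9 FPKM in controls and 38.6, 35.5, 43.6 and 39.5 FPKM in *Usp39*-HKO livers, overlapping, with a log2 fold change of 0.03 (SE 0.13). Its relative *Nfe2l2* (0.43, SE 0.09) and the small Maf partners *Mafk* (0.85, SE 0.16) and *Maff* (1.47, SE 0.36) rose. *Maff* overlapped in the deposited values, and the other small Maf of the list, *Mafg*, was at -0.27 (SE 0.11) and not called. *Ngly1*, whose product deglycosylates Nfe2l1 in the step that activates it, fell by 0.39 on the log2 scale (SE 0.11), and *Syvn1*, a ligase of the endoplasmic reticulum, by 0.35 (SE 0.09).

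The ubiquitin and conjugation list had 3 of 16 entries called higher, *Ube2c* (2.34, SE 0.29) and *Ube2s* (0.63, SE 0.13), which serve the anaphase-promoting complex in dividing cells, and *Rps27a* (0.89, SE 0.23), a ubiquitin and ribosomal fusion gene. *Ube2r2* was the one called lower (-0.41, SE 0.10). Of the proliferation markers, 8 of 9 tested were called higher in the same livers, with a sum of 12.4 to 18.9 FPKM in controls and 35.0 to 51.2 FPKM in *Usp39*-HKO livers, and their part in the *Ube2c* and *Ube2s* values was not tested. Among the shuttles and chaperone ligases, 1 of 13 tested was called higher, the small heat shock gene *Hspb1* (1.98, SE 0.48), and 4 lower, *Nbr1* (-0.46, SE 0.13), *Hdac6* (-0.44, SE 0.14), *Ube4a* (-0.41, SE 0.13) and *Bag1* (-0.32, SE 0.09).

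In the interferon and peptide loading list, 3 of 21 tested were called higher and 2 lower. The chaperone *Calr* fell from 188, 172, 191 and 187 FPKM in controls to 121, 109, 124 and 124 FPKM in *Usp39*-HKO livers without overlap, at -0.86 (SE 0.11), and its partner *Pdia3* was at -0.42 (SE 0.12). The receptor gene *Ifngr1* (0.63, SE 0.11) and the myeloid factor *Irf8* (0.62, SE 0.16) rose, as did *Ifngr2* (0.37, SE 0.11). *Tap1*, a subunit of the transporter that carries peptides into the endoplasmic reticulum, was at 8.99 ± 1.08 and 9.59 ± 1.78 FPKM (SD, n = 4 each), with a log2 fold change of -0.13 (SE 0.16), and was not called. *Ifng* was at 0 in 7 of the 8 livers.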

How the data were processed

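Liver RNA of 4 control and 4 *Usp39*-HKO mice was grouped by the genotype in the labels. Per the labels, total RNA libraries were made with the NEB Next Ultra kit and read in pairs, and the submitters' processing notes name Trim Galore 0.6.1, FastQC 0.11.9, HISAT2, Picard, featureCounts and the build mm10. Per the study's methods, reads were aligned with HISAT2 and counted with featureCounts. The annotation, the strand setting and the handling of reads with several positions are not given in the sources used here. The authors deposited raw counts per gene and FPKM, which are counts over exon length and total count. They also deposited 7 columns of their own DESeq2 comparison (a mean signal, log2 fold changes with error and score, p-values and a label), which were not used.

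The 14340 genes that reached an FPKM of 0.5 in 4 or more livers were fitted with edgeR 4.0.16 (glmQLFit, glmQLFTest) without covariates. TMM factors spanned 0.911 to 0.94 for control and 1.01 to 1.19 for *Usp39*-HKO libraries, and p-values were adjusted with Benjamini-Hochberg over all of them. Every adjusted p is from that fit unless another test, tool, scaling, trend removal or set of livers is named. Each other fit was adjusted over its own genes. Standard errors and 95% intervals came from the F statistic. Ratios used the exact permutation test over 70 assignments, which cannot go below 0.029. DESeq2 1.42.0, limma 3.58.1 and other scalings and filters were alternatives. Coordinates came from GENCODE vM21 (mm10), whose exon length equalled the table's for all 49 members, and shared sequence from BLAST (matches of at least 150 bases at 97% identity).

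Counts differed between livers of a genotype by more than counting error. The mice were littermates, but which of them shared a litter is not stated. The p-values set the genotype difference against the spread between mice. They treat the mice as independent, which could not be checked. A floor of 3 counts, which covers counting error alone, was 0.288 to 0.349 CPM.

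The members and lists were chosen with earlier results of these data known. Values in every liver were given for the inducible members, for the largest rise, largest fall and smallest change of each role, for called members with a log2 fold change of at least 0.5 and for members under the filter. In each list up to 4 called genes of largest change were named, with *Pomp*, *Adrm1*, *Nfe2l1* and *Tap1*. Some items that this rule names are not reported here. *Psmd1* and *Psmd2* were shown in full outside that rule, after their values were seen, as were the ring comparison and the fifth called gene of 3 lists (*Syvn1*, *Bag1* and *Ifngr2*). *Mafg* was also named outside that rule.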

Additional observations from a re-analysis of the deposited data

Results flagged for a closer look

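*Psmd11*, which encodes Rpn6 of the 19S lid, had 1 *Usp39*-HKO liver far from the others in the deposited FPKM. *Usp39*-HKO liver 1 was at 20.6 FPKM and the other 3 at 27 to 27.6 FPKM, a gap of 0.911 of the range of that group (above Dixon's critical value). It was the only one flagged of 100 groups of 4 livers looked at (47 members and 3 ratios in 2 genotypes), where chance flags about 1 in 20. After TMM scaling, *Psmd11* was at 20.4, 25.5, 25.4 and 22.7 in *Usp39*-HKO livers 1 to 4. Liver 4 then lay nearer to liver 1, and no flag was sought on that scale.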

How the results depend on the processing

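The rise of *Psmd8* was called in every alternative fit. With total counts alone 8 members were called higher and 1 lower, and with limma on log2(FPKM + 1) or log2(FPKM + 0.1) 9 higher and 0 lower. The 8 were *Psmd8*, *Psmd10*, *Psmg2*, *Psmg4*, *Psme1*, *Psme2b*, *Psme3* and *Psmf1*, to which limma added *Psma2*. Restricting to a mean FPKM of at least 5, or upper-quartile scaling, left 3 called lower, and the study's cutoff (p under 0.05 and a log2 fold change beyond 0.5) left 2. Leaving out 1 liver at a time gave 1 called higher and 3 to 4 called lower. *Psmd3*, *Psmd9* and *Psme4* were called in all 8 of those fits. DESeq2, edgeR after filterByExpr and edgeR with the exon length trend removed gave 1 higher and 6 lower, adding *Psmb4*. The share of all genes called is given only for the main fit and for total counts alone. The counts of the other fits therefore have no background beside them. The cause of the differences between fits was not tested.

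With total counts alone the medians became 0.12 for all members, 0.12 for the 20S rings, 0.09 for the 19S particle, 0.28 for the assembly chaperones and 0.35 for the inducible and PA28 alpha-beta genes. Leaving out 1 liver, they ran from -0.15 to -0.06, -0.16 to -0.04, -0.18 to -0.09, -0.04 to 0.19 and 0.06 to 0.16. The ratio differences then ran from 0.00 to 0.25 (*Psmb8*/*Psmb5*), -0.26 to -0.04 (*Psmb9*/*Psmb6*) and 0.17 to 0.26 (*Psmb10*/*Psmb7*), a design of 3 against 4 that cannot pass the threshold. Of the list genes, 18 were called higher and 1 lower with total counts alone. The exact test on raw count ratios gave the same p as on FPKM.

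For the 26 members named with every liver, 337 alternative values were compared, at most 13 per member. The limma fits, upper-quartile scaling and the other filters were not part of that count. Of the 337, 286 kept direction and call, 19 lost the call, 8 gained one and 24 changed sign, none of them from a called value. Among these 26, the sign changed with total counts alone for *Psma6* (0.08), *Psmc6* (0.06), *Psmd4* (0.15), *Psmd5* (0.12) and *Psmg1* (0.12). Over all 47 tested members, 15 lay above 0 and 32 below it under TMM scaling. With total counts alone 40 of the 47 lay above 0. With the exon length trend of each liver removed, added after the data were seen, *Psma2* became -0.01 and *Psmc2* -0.00. Leaving out 1 liver, the values that crossed 0 ran from -0.02 to 0.06 (*Psma2*), -0.08 to 0.14 (*Psmb5*), -0.00 to 0.40 (*Psmb8*), -0.00 to 0.17 (*Psmb10*), -0.04 to 0.08 (*Psmc2*), -0.14 to 0.03 (*Psmd4*), -0.21 to 0.00 (*Psmd5*), -0.04 to 0.21 (*Psmg3*) and -0.00 to 0.16 (*Psme2*).

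No paired analysis was possible because the labels give the mice identifiers and no replicate numbers shared between genotypes. The tested members with the fewest counts were *Psmg3* (37 to 73 per liver) and *Psmg4* (51 to 123).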
